A study of Mus musculus with 6 samples.

Results

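The genes described here are 37 interferon-responsive genes, chosen by name, with chemokines and MHC genes left out. A member was taken to be measured where a probe's accession mapped to its RefSeq symbol, and 34 of the 37 had such a probe. Mx1, Mx2 and Xaf1 were matched to no probe and were not analysed here. The 34 genes were carried by 49 probes, of which 47 passed the filter on dim signals, and all 34 genes were tested among 22751 genes in all. Of those 22751, 13473 had a symbol and 9278 were probes without one, each counted as a gene in every share of all genes.

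Interferons are secreted proteins that cells release when they detect foreign or misplaced nucleic acid, or, for interferon gamma, that lymphocytes release when activated. They bind receptors on neighbouring cells, and the Janus kinases on those receptors phosphorylate STAT proteins. Complexes of STAT proteins bind the interferon-stimulated response element, where IRF9 takes part, or the gamma-activated site, and turn on genes that limit virus growth. In skin, keratinocytes, fibroblasts, macrophages and plasmacytoid dendritic cells can all respond, and a low tonic level of these transcripts is present without infection. Cyclosporin A binds cyclophilins and so blocks calcineurin, the phosphatase that T cells need to switch on cytokine genes, interferon gamma among them.

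The study compared back skin of C57/BL mice given cyclosporin A with back skin of mice given ethanol, the vehicle, 2, 4 and 7 days after application. There were 6 two-channel Agilent arrays, 2 for each day, and every array carried a cyclosporin A sample in the red dye Cy5 and an ethanol sample from that day in the green dye Cy3. The animals' age, sex and number, the dose, and any mutation or transgene are not given in the sources used here. Unless a level is named, a value is the log2 of the cyclosporin A signal divided by the ethanol signal, so that 0 is no difference and a negative value is lower with cyclosporin A.

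Several features of the data bear on every value. Nothing in the labels says that the samples of a day came from separate animals, although the series text calls them biological replicates, so a p-value here speaks only to the spread of these samples, which may be technical. No array had the dyes swapped, so treatment and any dye bias of a probe cannot be told apart. Days 2 and 4 lay on 1 slide and day 7 on another, so slide and day 7 cannot be told apart. The median raw signal was 203 to 277 in the ethanol channel and 134.5 to 187 in the cyclosporin A channel, and the small number of arrays limits the precision. Of the 34 genes, 33 were well above background in both channels of all 6 arrays. Oas3 was so in every cyclosporin A sample but in only 2 of 6 ethanol samples. In bulk skin, fewer cells of a type and less RNA per cell cannot be told apart.

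At day 2 the interferon-responsive genes stood in opposite directions on the 2 arrays after loess, while under median centring both medians were above 0, at 1.6 and 0.22. On replicate 1 the median of the 34 genes was 1.05 and 30 of them were above 0, whereas 53.3% of all genes were. On replicate 2 the median was -0.31 and 4 of 34 were above 0, beside 57.7% of all genes. In all, 26 of 34 members were above 0 on replicate 1 and below 0 on replicate 2, a pattern that 20.2% of all genes showed. On replicate 1, 18 members had a ratio above 1, which 0.863% of all genes reached, and 13 of the 100 highest ratios on that array belonged to members. Oasl1, which in the mouse encodes an oligoadenylate synthetase-like protein that restrains translation of IRF7, ranked 6 among the 22722 genes with a value there.

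**Figure D1:**
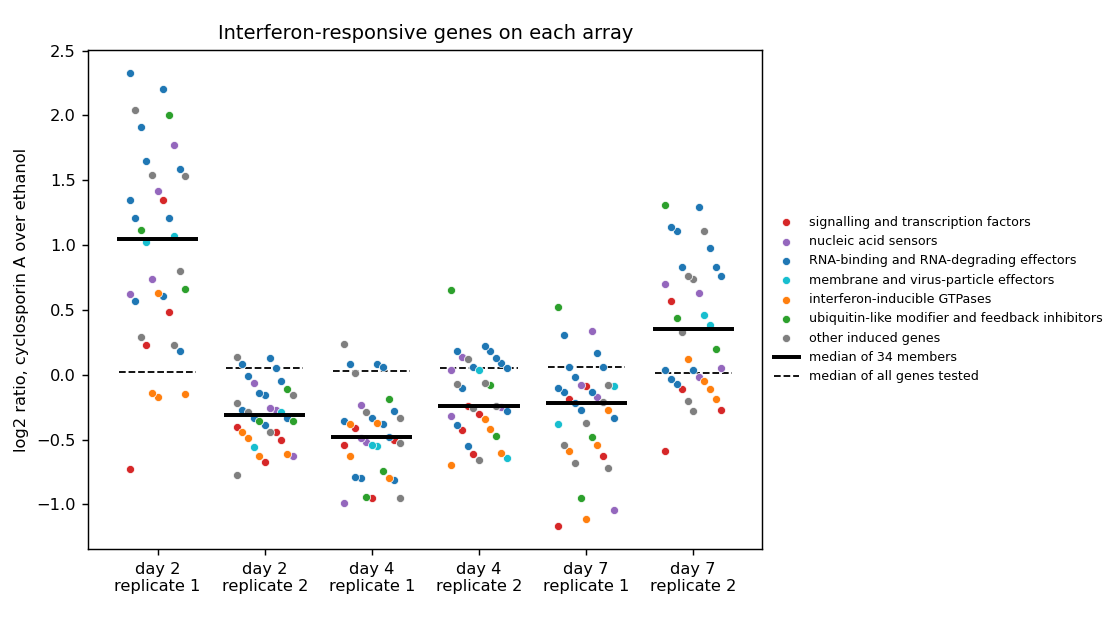
Log2 ratio of cyclosporin A over ethanol (vertical axis) of the 34 measured interferon-responsive genes on each of the 6 arrays (horizontal axis), with 1 point per gene coloured by role, a bold bar at the members' median and a dashed bar at the median of all genes tested. The members' medians were 1.05, -0.31, -0.48, -0.24, -0.22 and 0.35 from left to right, and under median centring in place of loess they were 1.6, 0.22, 0.15, 0.13, -0.03 and 0.84.

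The other 4 arrays did not repeat day 2 replicate 1 as a whole. Both arrays of day 4 had members below the rest of the genes, with medians of -0.48 (5 of 34 above 0) and -0.24 (12 of 34), or 0.15 and 0.13 under median centring against 0.36 and 0.19 for all genes. Day 7 was split again, in the opposite order of replicate number: its replicate 1 had a median of -0.22 with 6 of 34 above 0, and its replicate 2 a median of 0.35 with 23 of 34 above 0. On day 7 replicate 2, 5 members were above 1, beside 2.06% of all genes. Between the arrays of day 2 the gap, replicate 1 minus replicate 2, had a median of 1.13 over members and -0.03 over all genes, and it was above 1 for 20 members and for 2.02% of all genes. Between the arrays of day 7 the gap was below 0 for 31 members, with a median of -0.62, beside 43.4% of all genes.

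These signs depend in part on the normalization, which sets where 0 lies. When the arrays were centred on the median of all spots in place of loess, the median of all genes tested moved to 0.39 at day 2, 0.27 at day 4, 0.17 at day 7 and 0.28 over the average of days. The members' median on day 2 replicate 2 then became 0.22 with 31 of 34 above 0, against a median of 0.39 for all genes with 73.1% above 0. On day 2 replicate 1 it became 1.6, with 34 of 34 above 0, against 0.32 for all genes. With the scanner software's processed signals the day 2 medians were 1.09 and -0.39.

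Few members passed the test of a day's mean. The test was limma's moderated t over all genes, with a Benjamini-Hochberg adjusted p under 0.05 as the threshold. At day 2, 0 of 34 members passed, as did 0% of all genes, and 5 members had an unadjusted p under 0.05 (9.68% of all genes did). At day 4, 0 of 34 passed, beside 0.0044% of all genes, and 3 had an unadjusted p under 0.05 (15% of all genes). At day 7, 1 of 34 passed, Irf1, which was lower, beside 2.99% of all genes in either direction, 0.642% lower and 2.35% higher. Over the average of the 3 days, 4 of 34 passed, all lower, beside 13.1% of all genes in either direction, 3.41% lower and 9.67% higher: Irf1, Gbp2, Gbp3 and Igtp. The members' median was 0.34 at day 2, -0.32 at day 4, 0.02 at day 7 and 0.01 over the average, where the medians of all genes were 0.04, 0.04, 0.03 and 0.03. The standard error at day 2 was 0.11 to 0.66 over members with a median of 0.26, beside a median of 0.14 over all genes.

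No difference between days passed for any member. For day 4 minus day 2 the count was 0 of 34 (0% of all genes; 1 member with an unadjusted p under 0.05), for day 7 minus day 4 it was 0 (0.202% of all genes; 0 with an unadjusted p under 0.05, beside 4.47% of all genes), and for day 7 minus day 2 it was 0 (0.264%; 0 unadjusted, beside 6.13%). The median difference was -0.66 for day 4 minus day 2, with 3 of 34 above 0, and 0.34 for day 7 minus day 4, with 27 of 34 above 0.

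At day 2 the 6 members with the lowest p were Irf1, Eif2ak2, Gbp2, Oas2, Gbp3 and Trim30a. Eif2ak2 stood at 0.67 (SE 0.25, adjusted p 0.491) and Oas2 at 0.63 (SE 0.25, adjusted p 0.498) there, while Gbp2 stood at -0.33 (SE 0.13, adjusted p 0.498) and Gbp3 at -0.38 (SE 0.16, adjusted p 0.512). At day 4 they were Igtp, Gbp2, Irf1, Irgm1, Gbp3 and Samhd1, all 6 with a mean below 0 after loess, though Irf1, Gbp2 and Gbp3 stood at 0.3, 0.14 and 0.18 under median centring. Igtp stood at -0.75 (SE 0.24, adjusted p 0.243), Irgm1 at -0.61 (SE 0.26, adjusted p 0.343) and Samhd1 at -0.46 (SE 0.22, adjusted p 0.375). At day 7, after Irf1, they were Ifi35, Igtp, Irf9, Gbp3 and Eif2ak2. Irf9 stood at -0.45 (SE 0.18, adjusted p 0.212), Ifi35 at -0.5 (SE 0.19, adjusted p 0.2) and Eif2ak2 at 0.54 (SE 0.25, adjusted p 0.264).

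After loess normalization the genes that fell were Irf1 and 3 interferon-inducible GTPases, although all 4 averages lay above 0 under median centring. By the brightest probe of each gene, they were also the 4 members below 0 on all 6 arrays after loess, as 8.15% of all genes were. Irf1 encodes a transcription factor that is strongly induced by interferon gamma and binds many promoters of this group. Its log2 ratios were -0.73 and -0.5 at day 2, -0.5 and -0.43 at day 4, and -1.17 and -0.59 at day 7. All 6 were below 0, and day 7 replicate 1 was the lowest. Its mean at day 7 was -0.88 (SE 0.16, n = 2), 1.85-fold lower, with an adjusted p of 0.0426. Over the average of days it was -0.65 (SE 0.09, 6 arrays), 1.57-fold lower, with an adjusted p of 0.0137. At days 2 and 4 it stood at -0.61 (adjusted p 0.471) and -0.47 (adjusted p 0.264). A second Irf1 probe, dimmer, gave -0.41, -0.92, -0.74, -1, -0.55 and -0.35 on the same arrays, again below 0 on all 6.

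Igtp encodes an immunity-related GTPase that acts on the vacuoles of intracellular parasites. Its ratios were -0.14 and -0.63 at day 2, -0.8 and -0.7 at day 4, and -1.11 and -0.11 at day 7, the highest lying on day 2 replicate 1 and day 7 replicate 2, where other members were high. Its average was -0.58 (SE 0.14), with an adjusted p of 0.0412. Gbp2 and Gbp3 encode guanylate-binding proteins, large GTPases that coat pathogen vacuoles and are classic targets of interferon gamma. Gbp2 gave -0.17 and -0.49, then -0.37 and -0.42, then -0.27 and -0.05, an average of -0.3 (SE 0.07) with an adjusted p of 0.0475. Gbp3 gave -0.15 and -0.61, then -0.38 and -0.34, then -0.59 and -0.19, an average of -0.38 (SE 0.09) with an adjusted p of 0.0429. At single days none of the 3 passed. The lowest adjusted p values there were 0.204 for Igtp and 0.216 for Gbp3 at day 7, and 0.25 for Gbp2 at day 4.

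These calls changed when single arrays were left out. Irf1 at day 7 missed the threshold without any 1 of the 6 arrays (adjusted p 0.0506 to 0.249). Over the average, leaving out either day 4 array left 0 members called, when 1.07% and 0.119% of all genes passed. Without day 2 replicate 1 the called members were Irf1 and Gbp3 (5.84% of all genes), without day 7 replicate 1 only Irf1 (3.74%), and without day 7 replicate 2 Irf1 and Igtp (2.62%). Without day 2 replicate 2, 4 were called, Irf1 lower and Dhx58, Oas1a and Eif2ak2 higher, beside 6.62% of all genes. Under median centring the averages of Irf1, Gbp2, Gbp3 and Igtp turned to 0.09, 0.27, 0.18 and 0.05, against a median of 0.28 over all genes, and 12 members, Gbp2 among them, were called higher, when 59.8% of all genes passed. At day 7 the same setting called Socs1 higher in place of Irf1, which stood at -0.25 (adjusted p 0.402), when 21.8% of all genes passed.

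The promoters of the 4 genes are shown because these were the members called over the average and because they hold the letters of one or the other interferon element. Each is the 150 bases before the transcription start from RefSeq, build GRCm38.p6, 5′ to 3′ on the gene's strand, with matches in capitals. Capitals mark either of 2 motifs. The first, searched on both strands, is GAAA, then any 2 bases, then GAAA, the core of the interferon-stimulated response element. The second is TTC, then any 3 bases, then GAA, the gamma-activated site, which reads the same on both strands. The stretches are chr11:53769864-53770013 (plus strand), chr3:142620513-142620662 (plus), chr3:142559894-142560043 (plus) and chr11:58199406-58199555 (plus).
Irf1: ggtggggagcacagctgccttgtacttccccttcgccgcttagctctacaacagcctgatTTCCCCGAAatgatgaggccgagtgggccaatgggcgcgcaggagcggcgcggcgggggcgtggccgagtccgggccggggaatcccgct
Gbp2: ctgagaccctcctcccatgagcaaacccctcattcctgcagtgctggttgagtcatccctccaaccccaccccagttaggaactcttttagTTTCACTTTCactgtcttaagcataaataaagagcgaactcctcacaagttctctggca
Gbp3: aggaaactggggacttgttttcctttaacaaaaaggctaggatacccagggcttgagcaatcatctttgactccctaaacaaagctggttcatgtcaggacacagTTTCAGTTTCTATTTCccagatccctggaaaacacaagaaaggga
Igtp: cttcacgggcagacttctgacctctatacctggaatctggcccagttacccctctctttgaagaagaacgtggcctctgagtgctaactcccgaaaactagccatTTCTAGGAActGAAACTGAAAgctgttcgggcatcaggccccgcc
Irf1 holds 1 gamma-activated match, whose 5′ end lies 90 bases before the start, and no response element core in this window. Gbp2 holds 1 core match at 59 bases, Gbp3 overlapping ones at 45 and 39 bases, and Igtp 1 core match at 34 bases beside a gamma-activated match at 45.

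**Figure D2:**
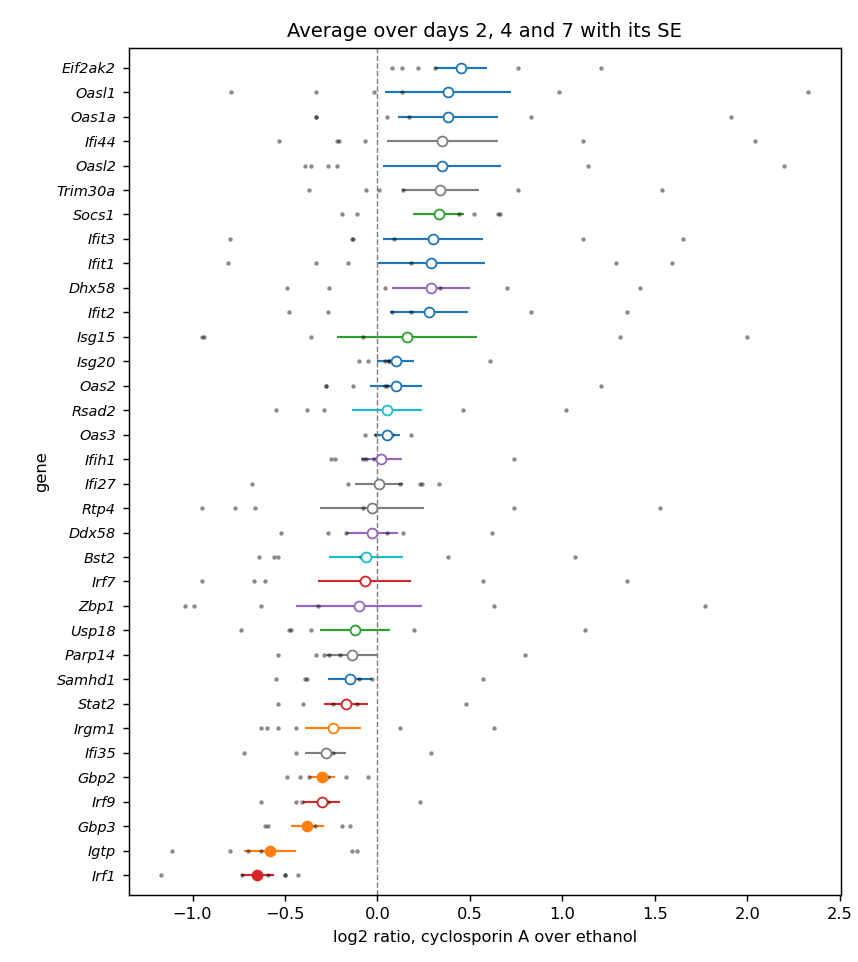
Average log2 ratio over days 2, 4 and 7 (large points, horizontal axis) with its standard error (bars) for each member (vertical axis), coloured by role as in the plot by array, with the 6 single arrays as small black points; filled points had an adjusted p under 0.05. Irf1 at -0.65, Igtp at -0.58, Gbp3 at -0.38 and Gbp2 at -0.3 were called, and under median centring they stood at 0.09, 0.05, 0.18 and 0.27. The small points of genes such as Isg15 and Oasl1 spread from below -0.5 to 2 and above, with averages of 0.16 and 0.38.

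The remaining GTPase and transcription factors did not pass with the brightest probe of each gene. Irgm1, an immunity-related GTPase tied to autophagy, gave 0.63 and -0.44 at day 2, -0.63 and -0.6 at day 4, and -0.54 and 0.12 at day 7. It was above 0 on day 2 replicate 1 and day 7 replicate 2 and below 0 on the other arrays, with an average of -0.24 (SE 0.15, adjusted p 0.313). Stat2, which carries the signal of type I interferon to the nucleus, gave 0.48 and -0.4, then -0.54 and -0.24, then -0.19 and -0.11 (average -0.17, adjusted p 0.375). Irf9, which helps STAT complexes hold DNA at the response element, gave 0.23 and -0.44, then -0.41 and -0.3, then -0.63 and -0.27 (average -0.3, SE 0.1, adjusted p 0.1). Irf7, the factor that amplifies type I interferon genes, gave 1.35 and -0.67, then -0.95 and -0.61, then -0.09 and 0.57. Its day 2 gap of 2.03 was among the 8 largest of the members, and its mean of 0.34 there had an SE of 0.43.

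Effectors that bind or degrade RNA carried the highest ratios on day 2 replicate 1. All 11 were above 0 there, with a median of 1.35, against -0.14 on replicate 2. Oasl1 gave 2.33 and -0.33 at day 2, -0.79 and 0.13 at day 4, and -0.02 and 0.98 at day 7. Oasl2, a synthetase-like protein with enzyme activity, gave 2.2 and -0.27, then -0.36 and -0.39, then -0.22 and 1.14. Oas1a, which makes the oligoadenylates that activate RNase L, gave 1.91 and -0.33, then -0.33 and 0.05, then 0.17 and 0.83. For each of the 3, day 2 replicate 1 was the highest array and day 7 replicate 2 the next. Their day 2 means of 1, 0.96 and 0.79 had SEs of 0.58, 0.55 and 0.47 and adjusted p values of 0.615, 0.61 and 0.62.

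The Ifit genes, whose products bind RNA that lacks the host's cap marks, followed the same order. Ifit3 gave 1.65 and -0.14, then -0.8 and 0.09, then -0.13 and 1.11. Ifit1 gave 1.59 and -0.16, then -0.81 and 0.18, then -0.33 and 1.29, and Ifit2 gave 1.35 and 0.08, then -0.48 and 0.18, then -0.27 and 0.83. Each was low on day 4 replicate 1. The probe mattered for Ifit2: a dimmer probe, above background in 2 ethanol samples, gave -0.88 on day 2 replicate 1, which is 2.23 below the probe used.

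Eif2ak2 was the only member above 0 on all 6 arrays, as 15.7% of all genes were. It encodes PKR, the kinase that halts translation when it binds double-stranded RNA. Its ratios were 1.21 and 0.13 at day 2, 0.08 and 0.22 at day 4, and 0.31 and 0.76 at day 7, with an average of 0.45 (SE 0.14, adjusted p 0.0843). Oas2, another oligoadenylate synthetase, gave 1.21 and 0.05, then -0.28 and -0.28, then -0.13 and 0.04. Its dimmer probe did not pass the filter. Oas3 stayed between -0.07 and 0.18 on all arrays by its brightest probe, near background in ethanol samples. Its second probe, above background in 1 ethanol sample, gave 0.35 and -0.25, then -0.37 and -0.06, then -0.1 and 0.26. That is the other sign on 4 of 6 arrays. Isg20, an RNA exonuclease, gave 0.61 on day 2 replicate 1 and between -0.1 and 0.06 on the other 5. A second Isg20 probe, also above background in every sample, gave 0.5 on that array and between -0.47 and 0.2 on the others. Samhd1, which depletes the nucleotides that retroviruses need, gave 0.57 on day 2 replicate 1 and between -0.55 and -0.03 on the others.

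**Figure D3:**
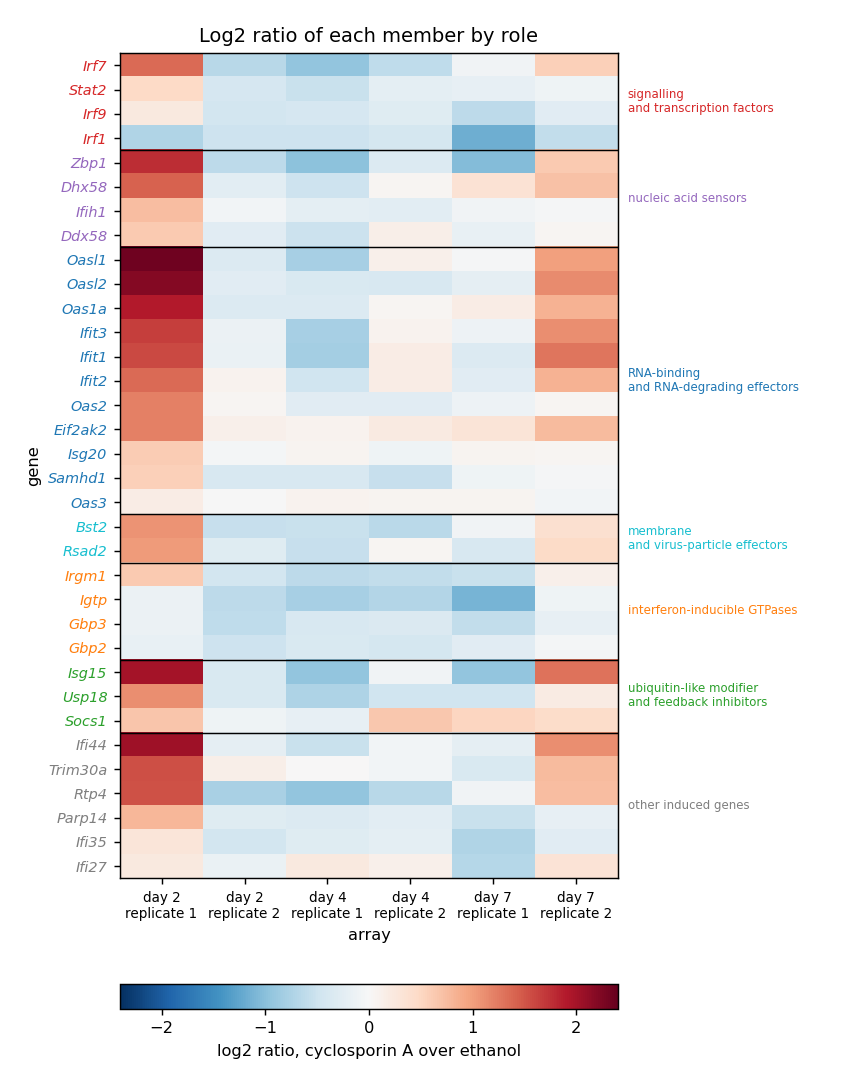
Log2 ratio of cyclosporin A over ethanol (colour, red above 0 and blue below 0) of each member (rows, grouped by role and ordered by day 2 replicate 1) on each array (columns). Red runs down the column of day 2 replicate 1 except at Irf1, Igtp, Gbp3 and Gbp2, and returns in paler form on day 7 replicate 2; under median centring, which shifts all genes upward, 34 of 34 were above 0 on day 2 replicate 1.

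Among the sensors of foreign nucleic acid all 4 were above 0 on day 2 replicate 1 and below 0 on day 2 replicate 2. Zbp1, a sensor of left-handed nucleic acid that can trigger cell death, had the widest swings: 1.77 and -0.63, then -0.99 and -0.32, then -1.04 and 0.63. Dhx58, a regulator of the RNA helicase sensors, gave 1.42 and -0.26, then -0.49 and 0.04, then 0.34 and 0.7. Ifih1 and Ddx58, the helicases that sense long and short double-stranded RNA, had smaller ratios. Ifih1 gave 0.74 and -0.06, then -0.23 and -0.25, then -0.08 and -0.02, and Ddx58 gave 0.62 and -0.27, then -0.52 and 0.14, then -0.17 and 0.05.

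Isg15, the ubiquitin-like protein that is joined to other proteins in this response, gave 2 and -0.36 at day 2, -0.94 and -0.08 at day 4, and -0.95 and 1.31 at day 7. It was the highest member on day 7 replicate 2 and among the lowest on day 7 replicate 1, a gap of -2.26. Usp18, which strips ISG15 off proteins and damps the type I receptor, gave 1.12 and -0.36, then -0.74 and -0.47, then -0.48 and 0.2. Socs1, an inhibitor of the Janus kinases, gave 0.66 and -0.11, then -0.19 and 0.65, then 0.52 and 0.44 (average 0.33, SE 0.14, adjusted p 0.161).

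Of the genes acting at membranes, Rsad2, the enzyme viperin that makes a chain-terminating nucleotide, gave 1.02 and -0.29, then -0.55 and 0.04, then -0.38 and 0.46. Bst2, the tetherin that holds budding virus on the cell surface, gave 1.07 and -0.56, then -0.54 and -0.64, then -0.09 and 0.38. The remaining induced genes were split. Ifi44 gave 2.04 and -0.22, then -0.53 and -0.07, then -0.21 and 1.11. Rtp4, a chaperone of membrane receptors, gave 1.53 and -0.77, then -0.95 and -0.66, then -0.08 and 0.74, and it was the lowest member on day 2 replicate 2. Trim30a, a member of the tripartite motif family, gave 1.54 and 0.14, then 0.01 and -0.06, then -0.37 and 0.76 (day 2 mean 0.84, SE 0.36, adjusted p 0.521).

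Parp14, an ADP-ribosyltransferase, gave 0.8 and -0.29, then -0.33 and -0.26, then -0.54 and -0.2. Ifi35 gave 0.29 and -0.44, then -0.29 and -0.24, then -0.72 and -0.28, with an average of -0.28 (SE 0.11, adjusted p 0.139). Ifi27 gave 0.23 and -0.16, then 0.24 and 0.12, then -0.68 and 0.33. By the brightest probe of each gene, Ifi35, Irf9 and the 4 genes called lower all lay at 0.29 or below on day 2 replicate 1. So did Ifi27 and Oas3, while the other 26 members were at 0.48 or above.

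The upstream sequences of 4 genes with ratios above 1 on day 2 replicate 1 are shown for comparison with the 4 above, drawn the same way from RefSeq (GRCm38.p6). They were picked by name from 18 such members, each holds a match, and they do not stand for the rest. No match was listed for Oasl1, Oasl2 or Ifi44, whose ratios there were higher, and whether each had a window is not given here. The stretches are chr4:156200819-156200968 (minus strand), chr19:34640739-34640888 (plus), chr12:26456453-26456602 (minus) and chr5:120907526-120907675 (minus), each printed on the gene's own strand.
Isg15: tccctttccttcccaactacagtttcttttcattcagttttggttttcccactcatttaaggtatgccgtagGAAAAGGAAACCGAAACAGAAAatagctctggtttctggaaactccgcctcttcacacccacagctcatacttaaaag
Ifit1: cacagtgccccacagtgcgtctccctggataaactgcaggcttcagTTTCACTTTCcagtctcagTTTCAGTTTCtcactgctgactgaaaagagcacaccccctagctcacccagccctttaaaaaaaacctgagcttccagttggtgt
Rsad2: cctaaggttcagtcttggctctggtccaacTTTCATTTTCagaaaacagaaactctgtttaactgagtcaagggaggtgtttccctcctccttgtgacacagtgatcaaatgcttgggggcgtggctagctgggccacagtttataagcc
Oas1a: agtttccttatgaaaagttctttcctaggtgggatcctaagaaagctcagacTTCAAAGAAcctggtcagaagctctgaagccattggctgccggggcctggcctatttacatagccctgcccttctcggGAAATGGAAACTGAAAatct
Isg15 holds 3 overlapping response element cores, the nearest 66 bases before the start, Ifit1 holds separate ones at 104 and 85 bases, Rsad2 has 1 at 120 bases, and Oas1a has overlapping ones at 20 and 14 bases beside a gamma-activated match at 98. Windows of 300 bases, from 250 before to 50 after the start, were on file for 28 of the 37 members. A core was found on either strand in 17 of the 28 (60.7%), beside 3.99% of 27025 genes with a window, and a gamma-activated match in 9 (32.1%), beside 9.55%. The capitals are matches of letters and show neither binding nor its lack.

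The single channels placed the difference at day 2 in the cyclosporin A sample more than in the ethanol sample. Levels are log2 intensities of 1 channel after the arrays were brought to a common distribution, and each gene is set against its own median over 6 arrays. In the cyclosporin A channel, day 2 replicate 1 was the highest of the 6 samples for 31 of 34 members (13.8% of all genes), and the members' median deviation there was 0.72. In the ethanol channel the same array was the highest for 4 of 34 (12.4% of all genes), with a median deviation of -0.21. A different ethanol sample stood out, that of day 4 replicate 1, which was the highest for 28 of 34 members (12.5% of all genes) with a median deviation of 0.39. All 6 fibroblast markers, described below, were also highest in that ethanol sample. The cyclosporin A samples of day 7 deviated by -0.19 on replicate 1 and 0.26 on replicate 2, while their ethanol partners deviated by -0.01 and -0.05.

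Isg15 shows the pattern in levels. Its ethanol samples were at 9.19 and 9.65 at day 2, 10.47 and 9.56 at day 4, and 9.54 and 9.36 at day 7. Its cyclosporin A samples were at 11.2 and 9.3, then 9.53 and 9.48, then 8.58 and 10.67. The highest ethanol sample was thus day 4 replicate 1, and the highest cyclosporin A samples were day 2 replicate 1 and day 7 replicate 2. Oasl1 had ethanol levels of 8.45 and 8.84, then 9.74 and 9.01, then 8.65 and 8.9, and cyclosporin A levels of 10.78 and 8.51, then 8.95 and 9.14, then 8.63 and 9.88. Irf1 differed: its ethanol levels were 13.45, 13.27, 13.41, 13.24, 13.01 and 12.99 in the same order, and its cyclosporin A levels 12.71, 12.77, 12.91, 12.81, 11.83 and 12.4. After loess, every cyclosporin A sample of Irf1 lay below every ethanol sample. These levels carry the same loess fit as the ratios and set 1 dye against the other. Under median centring the mean ratio of Irf1 was 0.22 at day 2, 0.3 at day 4 and -0.25 at day 7.

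**Figure D4:**
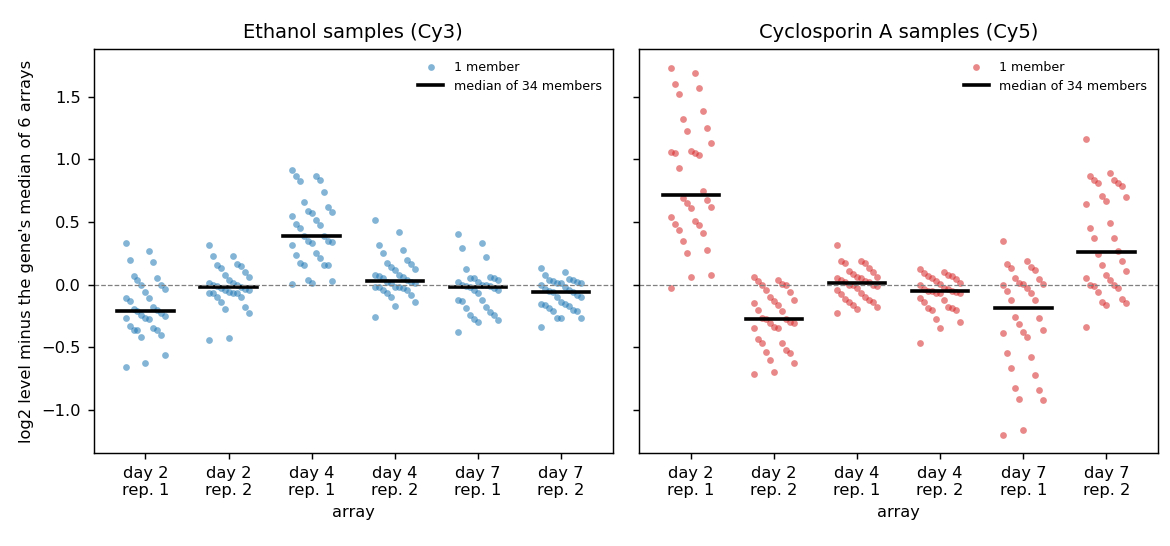
Log2 level of each member minus that gene's median over the 6 arrays (vertical axis) in the ethanol samples (left panel) and the cyclosporin A samples (right panel) of each array (horizontal axis), with 1 point per gene and a bar at the median. The bar is highest for day 4 replicate 1 among ethanol samples, at 0.39, and for day 2 replicate 1 among cyclosporin A samples, at 0.72.

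Differences between days within a channel did not pass for any member. In the ethanol channel 0 of 34 passed for day 4 minus day 2 (0.0044% of all genes; 14 members with an unadjusted p under 0.05, beside 8.84% of all genes), for day 7 minus day 4 (0.022%; 9 members, beside 9.53%) and for day 7 minus day 2 (0.0352%, of which 0.0308% higher; 4 members, beside 11.3%). In the cyclosporin A channel 0 passed for day 4 minus day 2 (0% of all genes; 0 members unadjusted, beside 1.44%), day 7 minus day 4 (0.365%; 2 members, beside 11.5%) and day 7 minus day 2 (0.928%; 3 members, beside 13.9%). Without day 7 replicate 2, which leaves 1 array at day 7, Irf1 and Ifi27 were lower in the cyclosporin A channel. They stood at -1.03 and -1.25 for day 7 minus day 4, and at -0.91 and -1.24 for day 7 minus day 2. They are named here after their values were seen.

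Day 2 replicate 1 and day 7 replicate 2 were alike gene by gene. They held the 2 highest of the 6 ratios for 26 of 34 members, beside 7.63% of all genes. Across the 34 members, which share probes and the same dye order on both arrays, the correlation of their ratios was r = 0.89 (Spearman's rho 0.89), beside r = 0.45 over all genes. Between the 2 arrays of day 2 it was 0.19, beside 0.01 over all genes, and between those of day 7 it was 0.28, beside 0.59. Day 2 replicate 2 was most like day 4 replicate 2 over the members (r = 0.69, all genes 0.32). These are descriptions over genes of single arrays, and genes are not independent replicates.

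**Figure D5:**
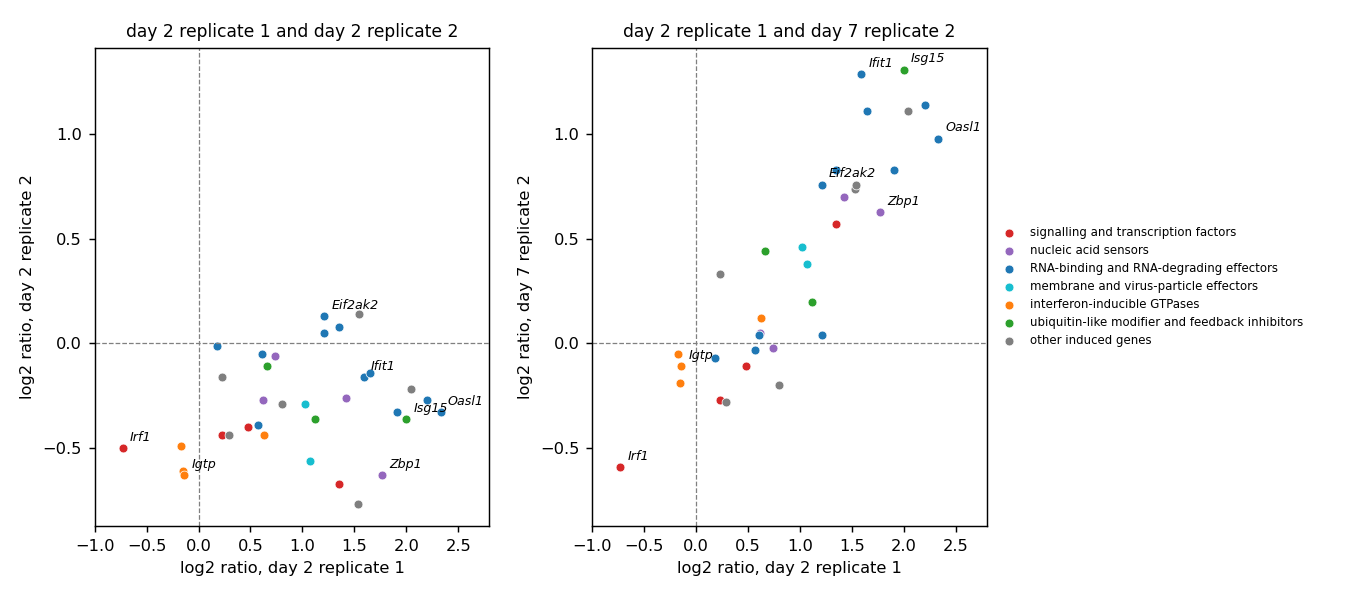
Log2 ratio of each member on day 2 replicate 1 (horizontal axis) against day 2 replicate 2 (left panel, vertical axis) and against day 7 replicate 2 (right panel, vertical axis), with 1 point per gene coloured by role. Points in the left panel lie mostly below 0 whatever their horizontal position (r = 0.19 over 34 genes), and in the right panel they lie along a rising line (r = 0.89); under median centring the members' median on day 2 replicate 2 was 0.22.

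Markers of several cell types also differed on day 2 replicate 1. All 6 fibroblast markers were above 0 there, with a median ratio of 0.78, and 7 of 8 tested macrophage markers were, with a median of 0.65. On day 2 replicate 2 these medians were -0.07 and -0.48, and under median centring they were 1.83 and 1.32 on replicate 1 and 0.95 and 0.29 on replicate 2. In the cyclosporin A channel day 2 replicate 1 was the highest of 6 samples for 6 of 6 fibroblast and 8 of 8 macrophage markers. The log2 of the summed intensities of fibroblast markers there was 19.2, against 18.56 to 18.82 in the other 5 cyclosporin A samples. For macrophage markers it was 17.29 against 16.62 to 16.9. The brightest markers weigh most in such a sum. On day 7 replicate 2, where members were next highest, the medians of these lists were -0.04 and -0.46 (1.02 and 0.17 under median centring). The log2 of the summed macrophage intensities was 16.67 there. In the ethanol channel, day 4 replicate 1 was the highest sample for 6 of 6 fibroblast markers (median deviation 0.4) and 3 of 8 macrophage markers (0.08). The part of these 2 lists in the members' ratios was not tested.

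Other lists went either way on day 2 replicate 1. All 5 adipocyte markers were above 0 there, with medians of 0.29 on replicate 1 and -0.56 on replicate 2 (1.17 and 0.38 under median centring). The medians of 5 endothelial markers were 0.26 and -0.15 (0.74 and 0.41), and those of 9 growing follicle markers were 0.32 and 0.07 (0.14 and -0.38). The median ratio was -0.38 for 6 keratinocyte markers, -0.18 for 7 T cell markers, -0.69 for 7 markers of MHC class II and Langerhans cells, and -0.02 for 5 plasmacytoid dendritic cell markers, which under median centring became 0.58, 0.15, 0.13 and 0.33. The natural killer cell markers Ncr1, Klrb1c and Gzma were not well above background in any ethanol sample. Of the 7 markers of MHC class II and Langerhans cells, 3 were called lower over the average, beside 3.41% of all genes, and 2 lay above 0. Their list median over the average was -0.73 after loess and 0.08 under median centring. At day 4 it was 0.02 after loess, with 4 of 7 above 0, and 0.61 under median centring. At day 7 it was -1.23 after loess, with 0 of 7 above 0, and -0.55 under median centring. After loess 3 of the 7 were called lower at day 7, beside 0.642% of all genes. At day 7 all 9 growing follicle markers were called higher, beside 2.35% of all genes, with a median of 4.42 (4.85 under median centring). The part of either list in the members' ratios was not tested.

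Most of the interferon genes were not tested. Of 15 ligand genes listed, 6 were tested and 0 were called at any day or over the average. Ifnb1, the first type I interferon made in many cells, had 1 probe that was above background on no array, and so had Ifnk and Ifne, the interferons of keratinocytes and epithelia. Ifng, interferon gamma, was above background in 2 ethanol and 4 cyclosporin A samples, and its ratios were -0.07 and -0.16 at day 2, -0.01 and -0.12 at day 4, and 0.21 and -0.2 at day 7 (average -0.06, SE 0.08, adjusted p 0.642).

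The counts that follow stand beside all genes tested, of which 2.99% were called at day 7 and 13.1% over the average (3.41% lower, 9.67% higher). Of 10 receptors and kinases, all tested, 1 was called lower at day 7 and over the average. It was Tyk2, the Janus kinase of the type I interferon receptor, with ratios of -0.41 and -0.72, then -0.71 and -0.74, then -0.58 and -0.73. Its average was -0.65 (SE 0.07, adjusted p 0.00923) and its day 7 mean -0.65 (SE 0.12, adjusted p 0.0476), the latter missed without any of the day 4 or day 7 arrays (0.113 to 0.233). Without either day 4 array the average missed the threshold (adjusted p 0.0507 and 0.0739), and under median centring it was -0.2 (adjusted p 0.0732), against 0.28 for all genes. Ifngr1, a chain of the interferon gamma receptor, gave -0.43 and 0.08, then -0.05 and -0.43, then -1.15 and -0.49 (average -0.41, adjusted p 0.0656). Ifnar1, a chain of the type I receptor, gave 0.33 and -0.01, then -0.03 and 0.14, then 0.22 and -0.09 (average 0.09, adjusted p 0.47).

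Of 14 tested genes that induce interferon or relay its induction, 1 was called, Cgas, the sensor of cytosolic DNA, which was higher over the average. Its ratios were between 0.27 and 0.39 on all 6 arrays, with an average of 0.31 (SE 0.06, adjusted p 0.0265), but without any 1 array it missed the threshold (adjusted p 0.0566 to 0.113). Of 7 inhibitors, 1 was called lower over the average, Pias3, a SUMO ligase that restrains STAT proteins (-0.33, SE 0.07, adjusted p 0.0335), and it too missed the threshold without any 1 array (0.0579 to 0.124). Under median centring Pias3 stood at 0.05, against 0.28 for all genes.

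Of 35 further induced genes tested, 7 were called over the average, all lower, and 1 of them at day 7. Tap1, the peptide transporter that feeds MHC class I, gave -0.57 and -0.38, then -0.52 and -0.58, then -0.5 and -0.85, with an average of -0.57 (SE 0.08, adjusted p 0.013). At day 7 it stood at -0.67, with an adjusted p that rounds to 0.05 and lay just under the threshold. No gene of the 5 lists was called at day 7 with processed signals, with scale normalization, or without either day 4 array or day 7 replicate 1. The average of Tap1 missed the threshold without either day 4 array (adjusted p 0.0602 and 0.0785). Psmb9, a subunit of the immunoproteasome, averaged -0.52 (adjusted p 0.0312) after loess but 0.23 under median centring, and it passed without day 7 replicate 2 and missed without any of the other 5 arrays. Gbp7, another guanylate-binding protein, averaged -0.54 (adjusted p 0.0345), and it passed without day 2 replicate 1 and missed without any of the other 5. Over all 72 tested genes of the 5 lists, 10 were called over the average, in either direction a share near the 13.1% of all genes. Of the 10, 9 were lower, where 3.41% of all genes were called lower and 9.67% higher. The count fell with any 1 array left out, and so did the share of all genes called. The medians of the further induced genes on the arrays were 0.4 and -0.23 at day 2, -0.33 and -0.18 at day 4, and -0.27 and -0.01 at day 7.

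Several genes had more than 1 probe. Of the members, 22 had 1 probe, 9 had 2 and 3 had 3. Of 13 further probes that passed the filter, 9 were above 0 on day 2 replicate 1, and 5 were above 0 there and below 0 on replicate 2. Trim30a's second probe gave 1.48 there and -0.52 on replicate 2, and Irgm1's gave 0.81 and -0.3. Rsad2 had 3 probes, at 1.02, 0.53 and 0.51 on replicate 1. Parp14 had 3, at 0.8, 0.25 and -0.05, the last above background in no ethanol sample. Ifih1's second probe was of the other sign on 4 of 6 arrays and was above background in 1 ethanol sample. Ifit, Oas and Gbp genes belong to families of similar sequence, and binding of a probe to a relative was not tested.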

How the data were processed

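Back skin RNA was measured on 6 dual-colour Agilent arrays, with ethanol in Cy3 and cyclosporin A in Cy5, per the labels. The deposited scanner files hold spot intensities. They were read with Agilent Feature Extraction 9.1, as the submitters' processing notes state. The authors' deposited log10 ratios of Cy5 over Cy3 equal the scanner's own log ratio and served as an alternative. The dye-normalization settings are not given in full in the sources used here.

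Median spot intensities were background-corrected by normexp (offset 50) and normalized within each array by loess, with control spots given no weight, in limma 3.58.1 under R 4.3.3 (the data.table package, version 1.17.8, python 3.11.15). Single channels were taken after Aquantile. Of 41174 probes, 27938 were kept, those that at least 1 channel detected well above background on each array of some day. The brightest probe stood for a gene. RefSeq names (GRCm38.p6) came by accession for 22951 probes and by synonym for 67, and 18156 probes stayed unnamed. An unnamed probe that was kept counted as a gene of its own. limma fitted 1 mean per day to 22751 genes, with 3 residual degrees of freedom, and Benjamini-Hochberg adjustment ran over all of them. The fit was tested on simulated data. No per-sample column was left unmapped.

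The members and gene lists were chosen with earlier results of these data known. All measured members are named. Full statistics follow for those with an adjusted p under 0.05 and otherwise for those with the lowest p, the widest day 2 gap or the highest signal, and at most 3 genes per pathway list, with Ifnar1, Ifngr1, Ifng and Ifnb1 named regardless. The result for 1 pathway gene that the rule names is not reported here. Alternatives covered normalization, filter, probe choice, replicate block, slide and each array left out.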

Additional observations from a re-analysis of the deposited data

Results flagged for a closer look

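After loess, Oas2 was the only member for which both arrays of one day lay on the other side of 0 from both arrays of another. Its log2 ratios were 1.21 and 0.05 at day 2 and -0.28 and -0.28 at day 4. Under median centring it stood at 1.65 and 0.4 on the day 2 arrays and at a mean of 0.05 at day 4, so the 2 day means lay on the same side of 0. Less the median of all genes in that setting, however, Oas2 stood at 0.63 at day 2 and -0.21 at day 4. The difference, day 4 minus day 2, was -0.91 (SE 0.35), with an unadjusted p of 0.038 and an adjusted p of 0.999 in limma's fit over all genes, so it was not called. The second Oas2 probe was not well above background on any array and gave no check.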

How the results depend on the processing

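Under median centring, which raised the median of all genes, 10 members were called at day 2 (38.3% of all genes), 2 at day 4 (24.5%) and 12 over the average (59.8%), all higher, and the members' median at day 4 was 0.1. The medians of day 4 replicate 1, day 4 replicate 2 and day 7 replicate 2 were then 0.15, 0.13 and 0.84. The averages of Irf1, Gbp2, Gbp3, Igtp, Pias3 and Psmb9 reversed to 0.09, 0.27, 0.18, 0.05, 0.05 and 0.23. At day 7 the count of members was 0 with processed signals, deposited log ratios, scale normalization, no filter, the mean of a gene's probes, slide 2 alone, and each array left out (0 to 0). Over the average, 2 were called with processed signals (5.24% of all genes) or deposited log ratios (7.38%), Irf1 lower and Oas3 higher. The strict filter also gave 2 (7.71%), and the mean of a gene's probes gave 5, Irf9 among them (13.3%). With single arrays left out the count was no higher than with all arrays. In the cyclosporin A channel, the counts for day 7 minus day 4 and day 7 minus day 2 changed without day 7 replicate 2. That setting leaves 1 array at day 7, and its share of all genes is not given here. Pathway genes, an analysis added after seeing the data, numbered 2 at day 7 (2.99% of all genes called). They numbered 0 with processed signals (0.971%), deposited ratios (1.26%), scale (1.38%) or slide 2 alone (1.8%). The count was 1 with no filter (1.83%) or the strict one (2.57%), 13 with median centring (21.8%), and below 2 with arrays left out. Their 10 over the average became 4 with processed signals (5.24%), 6 with deposited ratios (7.38%) and 41 with median centring (59.8%). With any 1 array left out the count was lower, and so was the share of all genes called. Deviations of same-numbered arrays correlated at 0.01 (days 2 and 4), -0.28 (days 2 and 7) and -0.02 (days 4 and 7) over all genes. Over members these values were -0.52, -0.63 and 0.5. They cannot tell whether same-numbered samples were paired. With the replicate number as a block, 0 members were called at day 7 and 1, Irf1, over the average, with 0 and 3 pathway genes. In that setting 1.45% and 5.57% of all genes passed. Other causes of these shifts were not tested, and 2 arrays per day, with dim signals for Oas3 and Ifng, limit the precision.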
